A study of Rattus norvegicus with 9 samples.

Results

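The cardiac sarcomere genes described here are 5 rat genes: Myh6 (ENSRNOG00000025757), Myh7 (ENSRNOG00000016983), Tnnt2 (ENSRNOG00000033734), Tnni3 (ENSRNOG00000018250) and Actc1 (ENSRNOG00000008536). They were chosen by their Ensembl IDs from a short list of well-known contractile genes, and they are 5 of the 30560 gene IDs counted in each library. All 5 IDs were present in all 9 libraries and all 5 passed the filter on low counts. The tables hold IDs without names, so the symbols are those of the list.

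The sarcomere is the contracting unit of striated muscle. Thick filaments of myosin pull on thin filaments of actin, and the troponin complex on the thin filament lets them interact when calcium rises. Myh6 and Myh7 encode the alpha and beta heavy chains of cardiac myosin, the motor of the thick filament. In rodents the beta chain prevails in the ventricle before birth and the faster alpha chain after it, and the ratio of Myh7 to Myh6 is a common readout of the fetal gene programme in stressed hearts. Actc1 encodes cardiac alpha-actin, Tnnt2 cardiac troponin T, which ties the complex to tropomyosin, and Tnni3 cardiac troponin I, its inhibitory subunit.

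RNA was measured in NRCM cells, labelled as rat heart cardiomyocytes, in 3 groups of 3 libraries. The first group was kept in normoxia, and the labels do not say whether it received the solvent DMSO. The second, H/R-DMSO, was kept for 6 h at 0.1% oxygen without glucose or pyruvate and then for 12 h at 21% oxygen in full medium with DMSO; such hypoxia and reoxygenation (H/R) imitates ischemia and reperfusion of the heart in a dish. The third, H/R-AS8351, had the same steps with 0.5 µM AS8351, which the labels call an inhibitor of the histone demethylase Kdm5b, in the reoxygenation medium. NRCM is the usual abbreviation of neonatal rat cardiomyocytes, which the labels do not spell out. They give no strain, sex or age in days and leave it unsaid if replicate libraries stem from different cultures. The spread behind the p-values may therefore be only technical.

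The libraries held between 34442733 and 54888975 counts, and single members held between 10322 and 578891. The counting error of a member, the square root of its count relative to the count, was therefore between 0.131% and 0.984%, while the coefficient of variation between the libraries of a group was between 0.950% and 5.46%. In all 15 combinations of gene and group the spread between libraries was larger than the counting error. Levels are given in CPM, counts relative to the library total, after TMM scaling, which sets each gene against most of the other RNA of the library. Transcript lengths were not used here, so CPM of different genes are not compared as levels. Together the 5 genes took 2.72% ± 0.0384 (SD, n = 3) of all counts in normoxia. The share was 1.51% ± 0.0416 in H/R-DMSO libraries and 2.00% ± 0.0606 with AS8351. Each of these 5 markers of the labelled cell type held at least 10322 counts in every library. Markers of other heart cells were not analysed here, and fewer cardiomyocytes and less RNA of these genes per cardiomyocyte cannot be told apart in bulk RNA.

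All 5 sarcomere genes were lower in H/R-DMSO than in normoxia, and all 5 were higher in H/R-AS8351 than in H/R-DMSO. The decrease was largest for Myh7, at 40.0% ± 1.29 (SD, n = 3) of its normoxia mean, and smallest for the troponin genes, with Tnnt2 at 73.5% ± 0.875. With AS8351, Tnni3 and Tnnt2 stood at 94.2% ± 2.76 and 90.1% ± 4.92 of their normoxia means and Myh6 at 82.6% ± 2.04. Actc1 and Myh7 stood at 58.8% ± 2.14 and 54.9% ± 2.35. With total-count scaling, the Tnni3 mean with AS8351 was above that of normoxia, 384 ± 12.5 against 374 ± 14.6 unscaled CPM. The libraries of these groups then overlapped for both Tnni3 and Tnnt2. The 2 myosin genes parted, and the Myh7 to Myh6 ratio was lowest with AS8351, not in between the other groups.

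**Figure D1:**
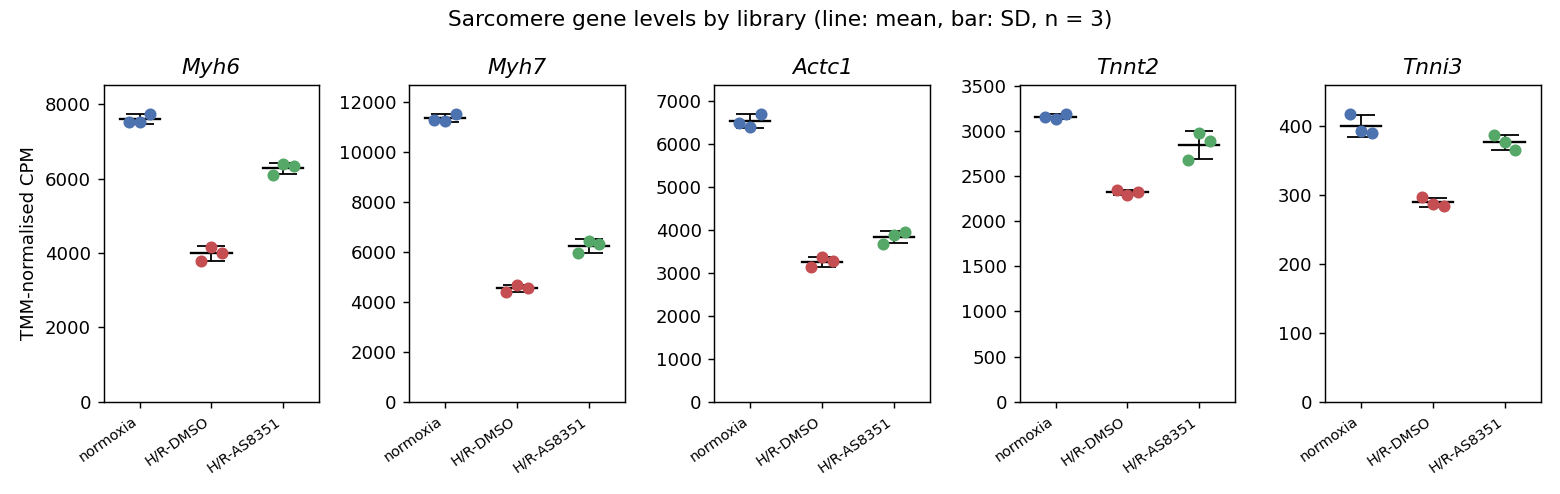
TMM-normalised CPM (y axis, from 0, on its own scale for each gene) of the 5 sarcomere genes in the 9 libraries; points are libraries, lines are group means and bars are the SD of 3 libraries. For each gene the H/R-DMSO libraries lie lowest and the H/R-AS8351 libraries lie between them and normoxia. Tnni3 is nearest to normoxia, at 365 to 387 against 389 to 417 CPM. When libraries are scaled to their total count, the Tnni3 means of these 2 groups change order. The libraries of both troponin genes then overlap those of normoxia.

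The first comparison, H/R-DMSO against normoxia, covers H/R together with its solvent and changes of medium. All 5 members were called lower by edgeR's quasi-likelihood test at a Benjamini-Hochberg adjusted p below 0.05. Of the 15879 genes tested, 25.2% were called lower. The median log2 fold change of the members was -0.93, against 0.03 over all genes tested. For all 5 the libraries of the 2 groups did not overlap, but how many of all genes tested shared this was not counted.

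Myh7, the slow beta chain, stood at 11284, 11254 and 11542 CPM in normoxia and at 4380, 4669 and 4566 CPM in H/R-DMSO. The normoxia libraries lay close together and more than 2 times above every H/R-DMSO library. Its change was -1.32 in log2 units (edgeR adjusted p = 1.36e-32, SE 0.031), and 2.82% of the genes tested had a lower one. Myh6, the fast alpha chain, stood at 7532, 7534 and 7746 CPM in normoxia and at 3787, 4162 and 4014 CPM in H/R-DMSO. All H/R-DMSO libraries lay between 49.8% and 54.7% of the normoxia mean, with a change of -0.93 in log2 units (edgeR adjusted p = 5.74e-27, SE 0.031).

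Actc1, the thin filament actin of the heart, stood at 6483, 6379 and 6697 CPM in normoxia and at 3125, 3354 and 3261 CPM in H/R-DMSO. Every H/R-DMSO library was near 50% of the normoxia mean, between 47.9% and 51.4%. The change was -1.01 in log2 units (edgeR adjusted p = 7.28e-28, SE 0.032), close to that of Myh6 and between both myosin genes.

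The troponin genes fell least, and their order was not settled. Tnnt2 stood at 3148, 3131 and 3189 CPM in normoxia and at 2347, 2292 and 2318 CPM in H/R-DMSO, a change of -0.44 in log2 units (edgeR adjusted p = 2.31e-15, SE 0.033). Tnni3 stood at 417, 392 and 389 CPM in normoxia and at 296, 287 and 283 CPM in H/R-DMSO, a change of -0.47 in log2 units (edgeR adjusted p = 2.34e-14, SE 0.037). Both groups of 3 were tight for both genes, with a gap between normoxia and H/R-DMSO far wider than either. Without replicate 1 of normoxia the order of both turned, to -0.45 for Tnnt2 and -0.44 for Tnni3, and their ratio gave p = 0.8 between these groups by the exact permutation test, also after adjustment over the 30 comparisons of 2 groups in the 10 member ratios. Among the genes tested, 14.8% had a lower log2 fold change than Tnnt2 and 14.0% a lower one than Tnni3.

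The 250 bases before the start of both troponin genes and of Actc1 are shown. The choice rests on H/R-DMSO against normoxia, where the troponin genes moved by like amounts and Actc1 by more. In H/R-AS8351 against H/R-DMSO Actc1 moved least, by 0.24 in log2 units, against 0.29 for Tnnt2 and 0.38 for Tnni3. RefSeq lists 2 start sites for Tnnt2, and the one shown is at the start of the annotated gene; the other lies 4936 bases inside it and is not shown. The sequences come from RefSeq, build GRCr8, and lie at chr13:49818873-49819122 on the plus strand for Tnnt2, chr1:78342321-78342570 on the plus strand for Tnni3 and chr3:121271828-121272077 on the minus strand for Actc1. Each is written 5′ to 3′ in the direction of the gene, and capitals mark matches of the motifs searched.
Tnnt2: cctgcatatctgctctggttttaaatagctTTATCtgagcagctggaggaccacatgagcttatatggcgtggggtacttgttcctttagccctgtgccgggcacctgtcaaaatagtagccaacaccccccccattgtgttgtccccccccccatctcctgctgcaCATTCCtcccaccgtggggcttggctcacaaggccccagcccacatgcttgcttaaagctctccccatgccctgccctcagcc
Tnni3: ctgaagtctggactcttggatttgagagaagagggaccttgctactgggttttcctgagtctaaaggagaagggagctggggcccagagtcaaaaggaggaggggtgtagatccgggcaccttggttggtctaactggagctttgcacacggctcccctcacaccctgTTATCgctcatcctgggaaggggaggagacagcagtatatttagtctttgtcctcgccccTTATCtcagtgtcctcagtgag
Actc1: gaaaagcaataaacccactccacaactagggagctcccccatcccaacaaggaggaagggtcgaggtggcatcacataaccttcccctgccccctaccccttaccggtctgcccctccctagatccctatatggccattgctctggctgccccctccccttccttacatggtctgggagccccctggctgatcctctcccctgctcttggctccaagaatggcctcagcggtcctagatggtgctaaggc

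The motifs were searched on both strands: GATAA, the core bound by GATA factors, CATTCC, the MCAT element bound by TEAD factors, TATAAA, the TATA box, and, by name, the CArG box bound by SRF and the MEF2 site. GATAA was matched 1 time in Tnnt2 and 2 times in Tnni3, each time on the strand opposite to the gene, and 23.5% of the 33469 RefSeq windows of this length hold it. CATTCC was matched 1 time in Tnnt2, between 83 and 78 bases before the start, and 12.1% of all windows hold it. No matches overlapped. Actc1 held no exact match to any of the 5 motifs in this window. Of all windows, 12.9% hold TATAAA, 1.50% the CArG box and 0.523% the MEF2 site. The CArG box and the MEF2 site were searched in a strict form without mismatches, so variants of them were not looked for. A match is a description of letters and was not tested for binding. The RefSeq windows of Myh6 and Myh7 use start sites 1966 and 1657 bases inside the annotated span of each gene and are not shown.

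**Figure D2:**
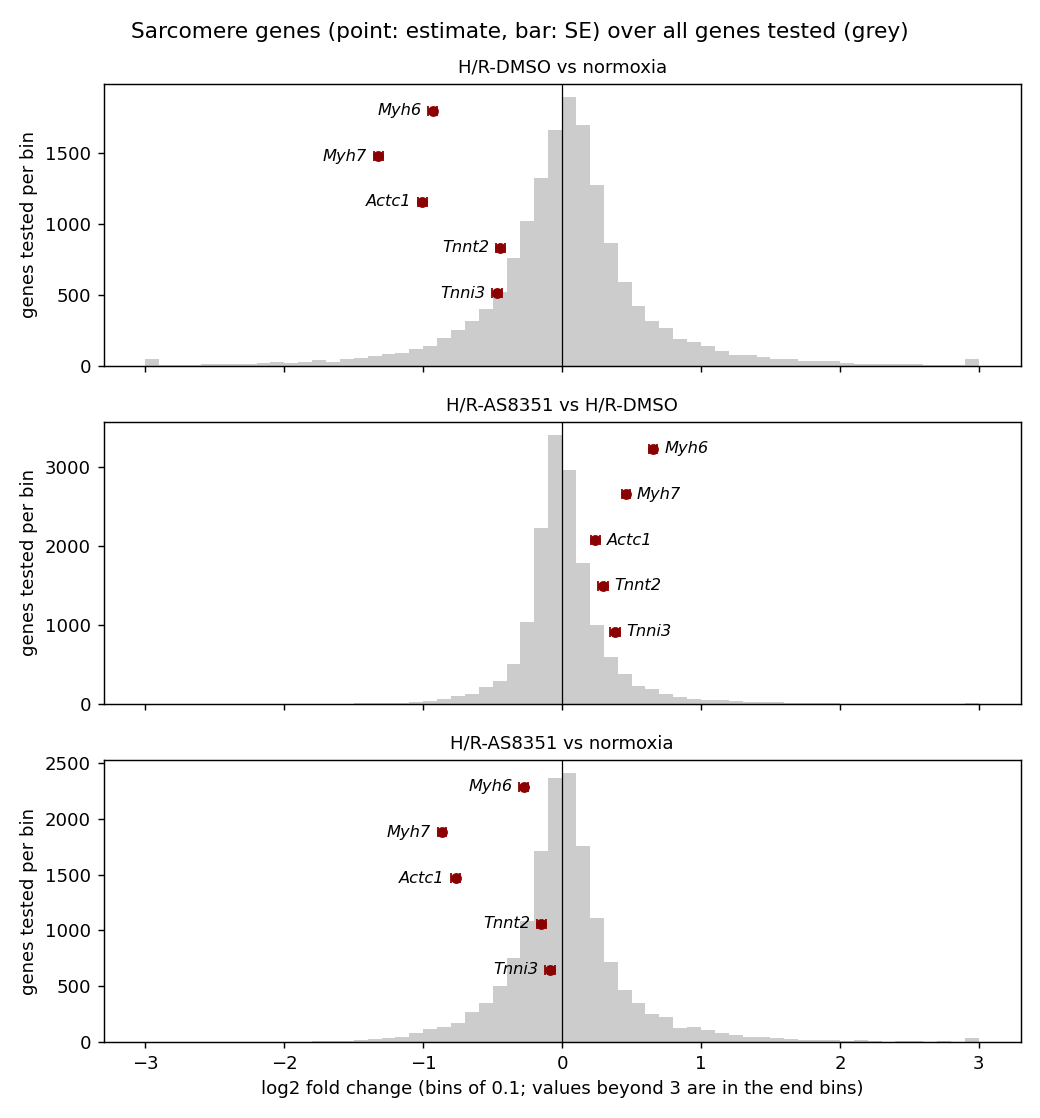
Log2 fold changes (x axis) of the 5 sarcomere genes, as points with SE bars, over the histogram of all 15879 genes tested (grey, y axis in genes per bin); the height of a point only separates the labels. The members lie left of 0 in H/R-DMSO against normoxia, from -1.32 to -0.44, right of 0 in H/R-AS8351 against H/R-DMSO, from 0.24 to 0.66, and left of 0 in H/R-AS8351 against normoxia, from -0.86 to -0.09, where Tnni3 did not pass the test and changes sign when libraries are scaled to their total count.

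The second comparison, H/R-AS8351 against its solvent control, covers the compound, since both groups had the same H/R. Where replicates stem from 1 dish, dish and compound cannot be told apart. All 5 members were called higher by edgeR, and 13.1% of the 15879 genes tested were called higher. The median log2 fold change of the members was 0.38, against -0.01 over all genes tested. The libraries of the 2 groups did not overlap for any member, and the share of all genes tested without overlap was not counted here either. This comparison and the one before it share the 3 H/R-DMSO libraries, so a deviation of those libraries enters both with opposite sign.

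Myh6 rose most, and to 6104, 6401 and 6332 CPM in the H/R-AS8351 libraries from at most 4162 CPM in H/R-DMSO. The change was 0.66 in log2 units (edgeR adjusted p = 1e-20, SE 0.031), a 1.57-fold increase, and 4.19% of the genes tested had a higher one. Myh7 rose to 5942, 6454 and 6325 CPM, a change of 0.46 in log2 units (edgeR adjusted p = 8.36e-16, SE 0.031). Replicate 1 was the lowest H/R-AS8351 library for both myosin genes.

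Tnni3 rose to 387, 377 and 365 CPM, a change of 0.38 in log2 units (edgeR adjusted p = 5.47e-11, SE 0.037). Tnnt2 rose to 2673, 2974 and 2887 CPM, a change of 0.29 in log2 units (edgeR adjusted p = 1.62e-09, SE 0.033). Replicate 1 was the lowest of the 3 for Tnnt2 and the highest for Tnni3, so the troponin genes did not share the order of the libraries. Actc1 rose least, to 3673, 3887 and 3936 CPM, a change of 0.24 in log2 units (edgeR adjusted p = 1.05e-07, SE 0.032). Its lowest H/R-AS8351 library was 3673 CPM and its highest H/R-DMSO library 3354 CPM, the narrowest relative gap among the members.

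The third comparison sets the treated cells beside cells without H/R. By edgeR, 4 of the 5 members were called lower, and 19.7% of the genes tested were called lower. The member median of the log2 fold change was -0.28, against 0.01 over all genes tested. Myh7 and Actc1 were still the farthest below normoxia, with differences of -0.86 (edgeR adjusted p = 2.32e-25, SE 0.031) and -0.77 (edgeR adjusted p = 3.75e-23, SE 0.032) in log2 units. Of the genes tested, 2.58% had a lower log2 fold change than Myh7, and 3.47% a lower one than Actc1. Myh6 was lower by a smaller amount, at -0.28 (edgeR adjusted p = 8.21e-10, SE 0.031), and at -0.15 (edgeR adjusted p = 4.64e-05) with total-count scaling.

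For the troponin genes the difference from normoxia was small. Tnnt2 had a change of -0.15 in log2 units (edgeR adjusted p = 0.000229, SE 0.033). Its H/R-AS8351 libraries were spread more widely than in the other groups, from 2673 to 2974 CPM, and all lay below the lowest normoxia library at 3131 CPM. Tnni3 had a change of -0.09 in log2 units (edgeR adjusted p = 0.0572, SE 0.037) and did not pass the test, with its highest H/R-AS8351 library at 387 CPM and its lowest normoxia library at 389 CPM. This call lay at the threshold: over the alternatives tried its adjusted p was between 0.02 and 0.412, and it was called lower with, for example, DESeq2 (adjusted p = 0.02) and without replicate 1 of H/R-AS8351 (adjusted p = 0.032 by edgeR).

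The troponin result against normoxia rested on the scaling. With libraries scaled to their total count alone, Tnnt2 had a log2 fold change of -0.02 (adjusted p = 0.54 by edgeR) and Tnni3 one of 0.04 (adjusted p = 0.412 by edgeR), so that the direction for Tnni3 turned. The unscaled CPM of Tnnt2 were 2743, 3017 and 2945 with AS8351 and between 2934 and 2978 in normoxia, so these groups overlapped. Those of Tnni3 overlapped too, at 397, 382 and 372 with AS8351 and 390, 367 and 363 in normoxia. On the log2 scale, the median gene moved by 0.16 in H/R-DMSO against normoxia, by -0.04 in H/R-AS8351 against H/R-DMSO and by 0.12 in H/R-AS8351 against normoxia under it. The share of called genes that were higher became 74.3%, 41.0% and 76.7% in these comparisons, against 52.1%, 56.9% and 50.0% with TMM. The other 13 directions and calls of the members were the same under it, but 3 of them moved by over 1.5 times: Myh6 in H/R-AS8351 against normoxia, as given above, and after H/R Tnnt2, to -0.28, and Tnni3, to -0.31. After H/R Myh7 was at -1.16, and Actc1 with AS8351 was at 0.20.

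**Figure D3:**
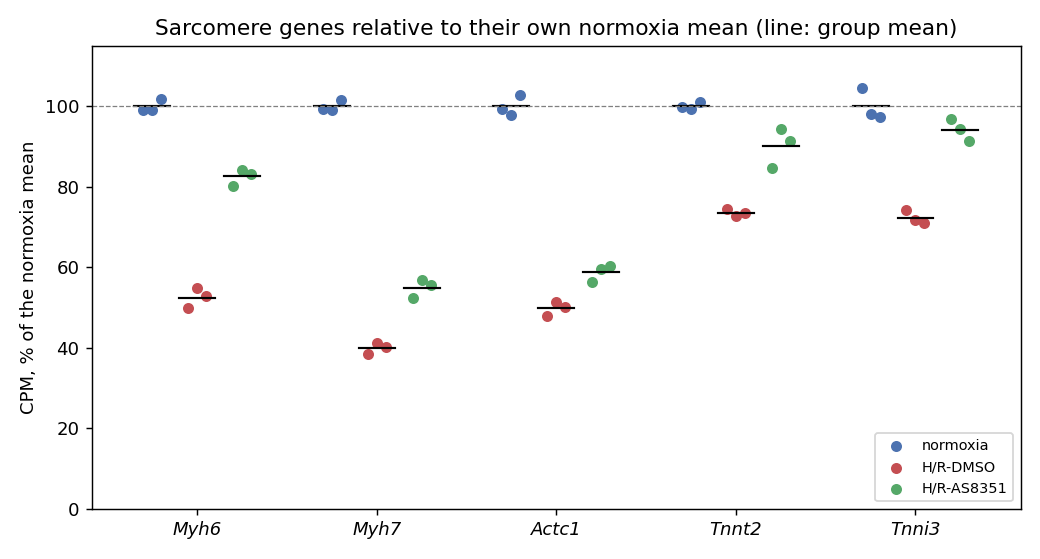
CPM of each sarcomere gene in percent of its own normoxia mean (y axis, from 0) in the 9 libraries; points are libraries, short lines are group means and the dashed line is 100%. Myh7 and Actc1 stay below 61% in all H/R-AS8351 libraries, Myh6 lies between 80.3% and 84.2%, and Tnnt2 and Tnni3 lie between 84.7% and 96.8%. With total-count scaling the Tnni3 mean lies above normoxia, and the libraries of Tnni3 and Tnnt2 overlap those of normoxia.

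In order of level with TMM scaling, all 5 genes stood highest in normoxia, next in H/R-AS8351 and lowest in H/R-DMSO. The libraries of neighbouring groups did not overlap, a trait not counted over all genes tested. Between normoxia and H/R-AS8351, Tnni3 did not pass the test (edgeR adjusted p = 0.0572). With total-count scaling the means of normoxia and H/R-AS8351 changed order for Tnni3, and the libraries of these groups overlapped for both troponin genes.

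The ratio of Myh7 to Myh6 was taken from the counts of the 2 genes in the same library, so that no scaling enters it. It is a ratio of read counts and not of molecules, since transcript lengths were not used, but a length cancels from a change between groups. The 2 genes are close relatives in sequence, and how reads that fit both were treated is not given in the sources used here, so that the size of the ratio and of its change is uncertain. RefSeq (GRCr8) places them on 1 chromosome. The start coordinates of 4 further entries, one of them the microRNA gene Mir208a, lie between theirs. Whether these entries lie inside either myosin gene was not examined.

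The Myh7 to Myh6 ratio was 1.50, 1.49 and 1.49 in the normoxia libraries. In H/R-DMSO it was 1.16, 1.12 and 1.14. With AS8351 it was 0.973, 1.01 and 0.999. The 3 groups did not overlap, and the ratio went down from normoxia to H/R-DMSO and again to H/R-AS8351. As a share of the counts of both genes, Myh7 took 59.9% ± 0.0652 (SD, n = 3) in normoxia, 53.2% ± 0.382 in H/R-DMSO and 49.8% ± 0.457 in H/R-AS8351.

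Over the 3 groups the log2 ratio differed with p = 0.00357 in an exact permutation test over the 1680 assignments of the 9 libraries, the smallest p this design can give. The difference of the mean log2 ratio was -0.39 after H/R, -0.20 with AS8351 against its solvent control and -0.59 between H/R-AS8351 and normoxia. Each pair of groups gave p = 0.1 in the two-sided exact permutation test, also after adjustment over the 3 pairs, or 0.12 adjusted over the 30 comparisons, and 3 libraries against 3 cannot go lower. The ratio therefore did not take the course of the 2 levels: both myosin genes were higher with AS8351 than in H/R-DMSO, and Myh6 by more.

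**Figure D4:**
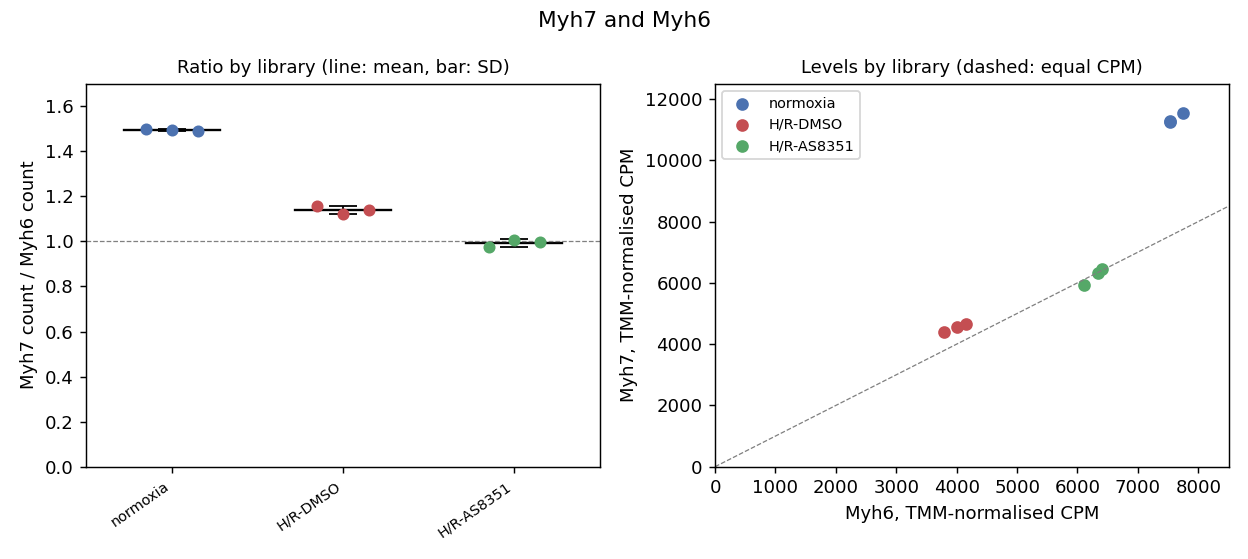
Left, the ratio of Myh7 to Myh6 counts (y axis, from 0) in each library, with group means and SD of 3 libraries and a dashed line at 1; right, TMM-normalised CPM of Myh7 (y axis) against Myh6 (x axis), with a dashed line of equal CPM. The normoxia libraries have ratios of 1.49 to 1.50, those of H/R-DMSO 1.12 to 1.16 and those of H/R-AS8351 0.973 to 1.01, and the H/R-AS8351 libraries lie close to the line of equal CPM.

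The same was done for all 10 ratios of 2 members, of which the 9 others were added after the values of the members were seen. In 9 of the 10 the log2 ratio differed between the 3 groups by the exact permutation test, with adjusted p between 0.00595 and 0.0159 over the 10. The exception was the ratio of Tnni3 to Tnnt2, the troponin subunits (p = 0.375 by the exact permutation test, also after adjustment over the 10). It was 0.127 ± 0.00541 (SD, n = 3) in normoxia, 0.125 ± 0.00208 in H/R-DMSO and 0.133 ± 0.0105 in H/R-AS8351. Such a p does not show that the 2 genes moved alike.

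The relation of Actc1 to Myh6 shifted mostly with AS8351. The ratio of Actc1 to Myh6 was 0.857 ± 0.00941 in normoxia and 0.815 ± 0.00979 in H/R-DMSO, then 0.610 ± 0.0103 in H/R-AS8351 (SD, n = 3 in each). Its mean log2 value differed by -0.07 after H/R and by -0.42 with AS8351. Over the 3 groups the exact permutation test gave p = 0.00357 and an adjusted p of 0.00595.

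Actc1 and Tnnt2, both of the thin filament, had a ratio of 2.07 ± 0.0318 in normoxia, 1.40 ± 0.0663 in H/R-DMSO and 1.35 ± 0.0362 in H/R-AS8351 (SD, n = 3 in each). The ratios of the last 2 groups overlapped, with p = 0.4 in the exact permutation test, or 0.429 adjusted over the same 30. The ratio of Myh7 to Actc1 went the other way with AS8351, from 1.74 ± 0.0205 in normoxia and 1.40 ± 0.00520 in H/R-DMSO to 1.63 ± 0.0283 (SD, n = 3 in each). So the 2 genes that stayed lowest relative to normoxia, Myh7 and Actc1, did not keep a fixed ratio either.

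For the genes with a pattern most like that of the myosin genes, log2 CPM over the 9 libraries were compared over the 11260 tested genes whose mean reached 5 CPM. Closest to Myh7 was ENSRNOG00000017628 (Pearson r = 0.9996), at 2041 ± 55.5 CPM in normoxia, 781 ± 28.6 CPM in H/R-DMSO and 1093 ± 55.6 CPM in H/R-AS8351 (SD, n = 3 in each). Closest to Myh6 was ENSRNOG00000020263 (Pearson r = 0.9976), at 112 ± 3.79, 38.7 ± 4.20 and 79.1 ± 4.07 CPM in the same order. The libraries fall into 3 separate groups, so these values say that the log2 group levels are ordered alike and spaced in like proportion. They leave out the size of the change. After H/R it was -1.53 in log2 units for ENSRNOG00000020263 against -0.93 for Myh6, and -1.39 for ENSRNOG00000017628 against -1.32 for Myh7. The files do not pair these IDs with names, and other sarcomere genes are not analysed here for the same reason.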

How the data were processed

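Libraries were made from TRIzol-extracted RNA by NEBNext Ultra II chemistry, per the labels' protocols. For each library the authors deposited 1 table of unnormalised counts by Ensembl ID. The submitters' processing notes name the build rn6 and, without roles, DESeq2 1.32.0, featureCounts 2.0.1, STAR 2.7.3a and Trimmomatic 0.39; the sources used here do not give the annotation release, strand setting or handling of multi-mapping reads. Groups and replicate numbers come from the sample titles.

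The tests used edgeR 4.0.16 under R 4.3.3. filterByExpr at its defaults (minimum count 10, minimum total count 15) kept 15879 of 30560 IDs and 99.97% of the counts. Libraries were scaled by TMM, 1 quasi-likelihood model was fitted to all 9 libraries, and Benjamini-Hochberg adjustment covered all genes tested. SEs are the size of the log2 change over the square root of F. The fit and the permutation test were tested on simulated data. No 2 libraries of a group agreed within sampling noise (chi-square per degree of freedom from 3.89 to 8.72 within groups). Alternatives were RLE, upper-quartile and total-count scaling, other filters on low counts, DESeq2 1.42.0, limma-voom (limma 3.58.1), fits of 2 groups, the replicate block and each library left out. Members, lists and tests were chosen with earlier results of these data known. The text names the 5 members and the ID most like each myosin gene; the lists of further sarcomere genes and cell type markers could not be used, since 0 of 47357 genes of the RefSeq table have an Ensembl ID.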

Additional observations from a re-analysis of the deposited data

How the results depend on the processing

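Of 225 log2 fold changes of single members under alternatives, 217 kept their direction and their side of the threshold. The other 8 all concern H/R-AS8351 against normoxia. For Tnni3, total-count scaling turned the direction, to 0.038, and 6 alternatives called it lower: RLE scaling, DESeq2, limma-voom, the fit of the 2 groups alone, the replicate block and the fit without replicate 1 of H/R-AS8351. For Tnnt2, total-count scaling ended the call. The cause was not tested. Against normoxia, between 3 and 5 members were called lower in H/R-AS8351. In both other comparisons all 5 were called under every alternative run, and the counts of all genes called stayed within 1.5 times of the main counts. With each library left out, the difference of the Myh7 to Myh6 log2 ratio was between -0.40 and -0.38 after H/R and between -0.21 and -0.18 with AS8351 against its solvent control. Whether replicate numbers pair the libraries was not settled. Over all genes tested, deviations from group means correlated between -0.0231 and 0.0417 for the same number and between -0.0445 and 0.0259 otherwise. Of the 9 libraries, 1 correlated best with its own number in both other groups at once. Over the genes averaging 10 CPM or more, a choice made after seeing the data, the ranges were -0.11 to 0.326 and -0.247 to 0.103. There too, 1 of 9 libraries correlated best with its own number in both other groups. The replicate block gave 8539, 3940 and 6468 called genes in the order of the comparisons, against 8364, 3671 and 6257 without it. With the block, Tnni3 was at -0.086 in H/R-AS8351 against normoxia (adjusted p = 0.0328 by edgeR). By exact permutation within numbers, the Myh7 to Myh6 ratio over 3 groups had p = 0.0278 and the Actc1 to Tnnt2 ratio p = 0.0833.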
